A study of Mus musculus with 6 samples.

Results

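Genes of the tumour necrosis factor (TNF) superfamily and of the NF-κB pathway were followed in osteoblast cultures with and without verapamil, a drug that closes L-type calcium channels. Members were taken by gene symbol. They comprised TNF and the numbered superfamily ligands and receptors, the TRAF adaptors and their binding partners, RIP kinases, IκB kinases, NF-κB subunits, IκB proteins, and the TNF-induced proteins with the partners of A20. RANKL, RANK and osteoprotegerin were left out. The rule found 69 of the 17491 genes in the count table, and 58 of them passed the low-count filter and were tested.

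TNF superfamily ligands are membrane-bound or shed trimers that bind receptors of the TNF receptor superfamily. TRAF adaptors and RIP kinases then carry the signal to the IκB kinases, which release NF-κB dimers from IκB proteins in the canonical branch or drive processing of the Nfkb2 product in the non-canonical branch. NF-κB switches on its own inhibitors, among them IκBα and A20. In bone, TNF family signals are known for holding back osteoblast differentiation and for driving osteoclast formation.

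All 6 samples were osteoblasts grown from marrow mesenchymal stem cells of wildtype mice (tibia and femur). They were taken at day 7 of osteogenic culture, whose medium held ascorbic acid, dexamethasone and β-glycerophosphate. The groups were labelled CONTROL (3 libraries) and VERAPAMIL-TREATED (3 libraries), and the labels give neither the dose nor the length of exposure. Whether replicates came from separate animals or dishes is not stated, and the spread behind each p-value may therefore be technical. Library totals ran from 18.2 to 21.7 M estimated reads.

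Osteoblast genes were present in every library, as were those of macrophages. Of 23 macrophage markers, 18 were higher with verapamil, 1 (Cx3cr1) was lower, and none was at 0. Their summed level was 12299 to 15065 normalised reads scaled for library size (CPM) in control and 21759 to 24459 CPM in verapamil libraries, and their median log2 fold change was 0.58. Of 16 osteoblast markers, 13 were lower and 0 higher (median -0.96). Among 14 lymphocyte and natural killer cell markers, 10 were listed. Their sum was 5.70 to 7.84 CPM in control and 14.7 to 16.5 CPM in verapamil libraries, of which Il7r made up 5.01 to 7.05 and 13.3 to 15.2 CPM, and Cd3d, Cd79a, Ms4a1 and Nkg7 were at or near 0 in every library. Dendritic cell markers summed to 3.35 to 5.66 CPM in control and 3.25 to 4.90 CPM in verapamil libraries. Osteoclast markers summed to 366 to 396 CPM in control and 334 to 359 CPM in verapamil libraries. Of 6 osteoclast markers tested, 1 was higher and 3 were lower, as were 1 and 3 of 8 endothelial markers. Control libraries were spread along a hypoxia list of 16 genes, which summed to 4317, 6685 and 2601 CPM in control replicates 1, 2 and 3 and to 1669 to 1948 CPM in the verapamil libraries. In such bulk samples, fewer cells of a type and less RNA per cell cannot be told apart.

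Verapamil cultures held more RNA for several ligands, for TNF receptor 2 and for the inhibitors A20 and IκBα, and less RNA for the TWEAK receptor Fn14, for CD137 and for the NF-κB subunit Relb and the nuclear IκB protein Bcl3. Most genes of the relay between receptor and NF-κB did not pass the test, nor did 9131 of all 13366 genes tested. Among 28 other adaptors and kinases of the pathway, outside the symbol rule, 46.4% passed it, beside 31.7% of all genes tested. Of the 58 members tested, 22 were called at an adjusted p under 0.05 by the quasi-likelihood test of edgeR, with p-values adjusted by Benjamini-Hochberg over all 13366 genes tested. That is 37.9%, beside 31.7% of all genes tested. Members called higher numbered 15 (25.9%, beside 15.4% of all genes) and those called lower 7 (12.1%, beside 16.3%). The control and verapamil values did not overlap in 32 members (55.2%, beside 49.6% of all genes). The median log2 fold change of verapamil over control was 0.03 for the members and 0.01 for all genes, and the median size of the change without its sign was 0.28 and 0.20. A change of at least 1 on the log2 scale was seen in 5 members (8.62%) and in 4.57% of all genes. When a single verapamil library or control replicate 1 was dropped, 14 or 15 of the 22 calls remained, and no further members were called. In the same runs the number of all genes called fell from 4235 to between 2236 and 2671, or 16.6% to 19.8% of those tested. Calls that passed without each library in turn numbered 13, of which 10 were higher and 3 lower.

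**Figure D1:**
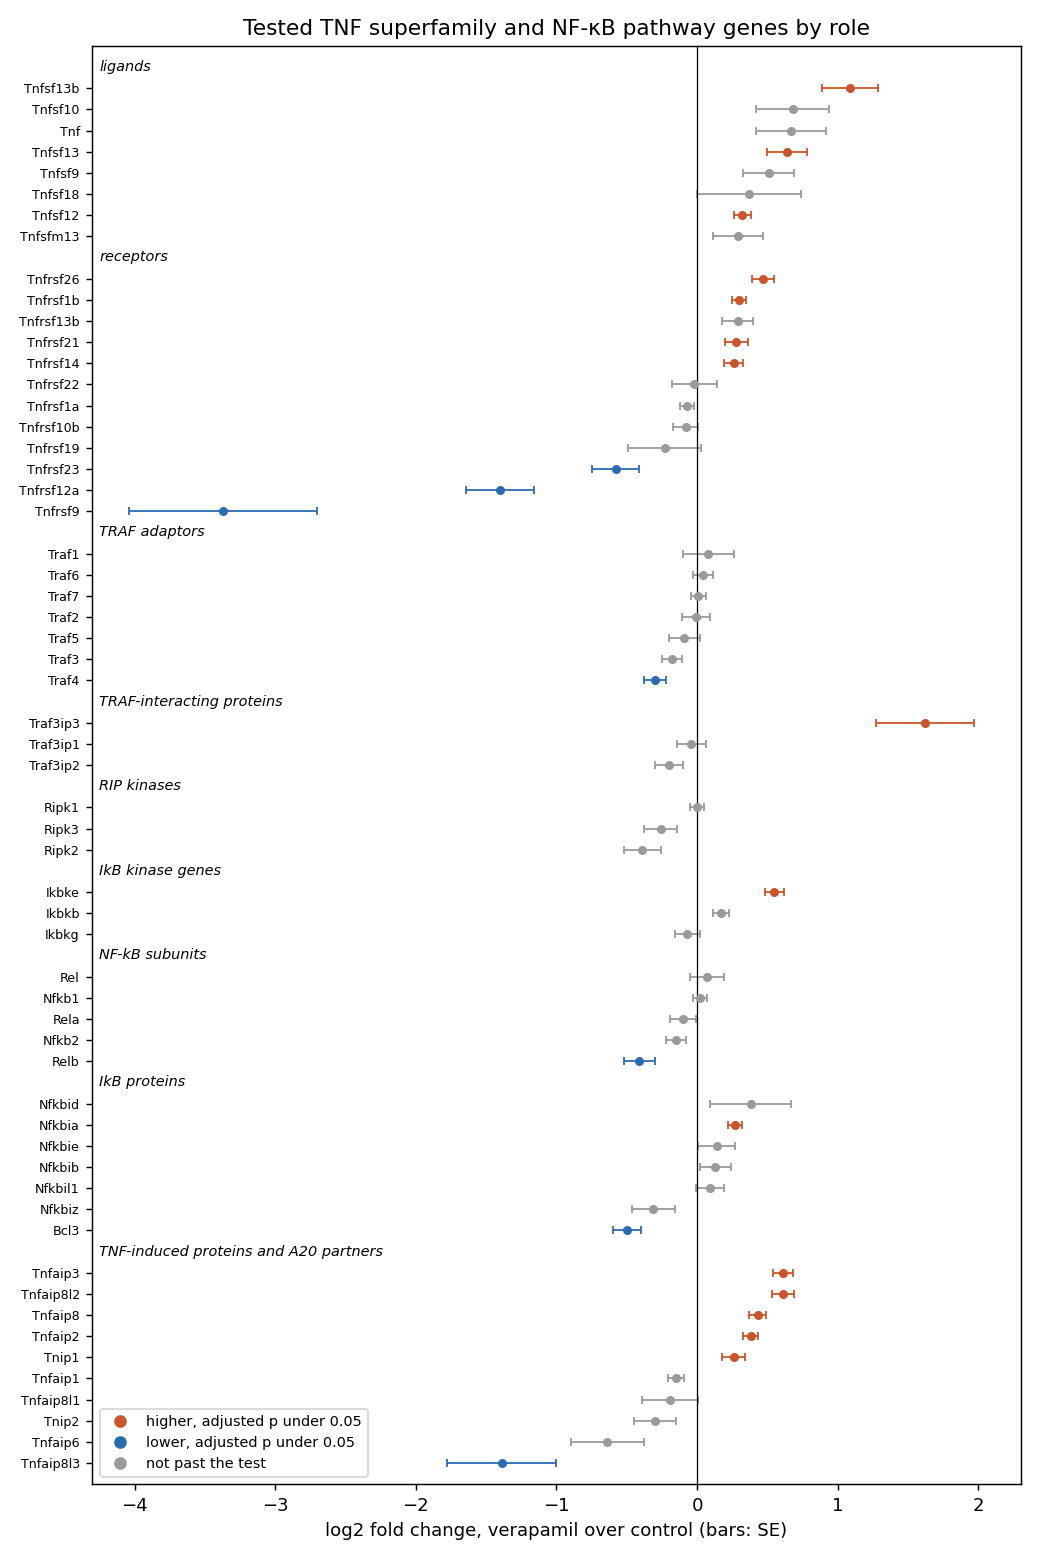
Log2 fold change of verapamil over control (x axis; bars are SE) for the 58 tested members, grouped by role along the y axis, with colour for the call at an adjusted p under 0.05. Of the members, 15 lie to the right and are called higher and 7 lie to the left and are called lower, with Tnfrsf9 farthest to the left at -3.37.

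Among ligands, 3 of 8 tested genes rose and none fell (37.5% called, beside 31.7% of all genes tested). Tnfsf13b, which encodes the B-cell survival factor BAFF (chromosome 8, 10006229 to 10036000 in GRCm38), stood at 1.17, 1.12 and 1.61 CPM in control replicates 1, 2 and 3 and at 3.03, 2.80 and 2.56 CPM in verapamil replicates 1, 2 and 3. All 3 verapamil libraries lay above all controls, and the log2 fold change was 1.09 ± 0.20 SE (adjusted p = 0.00529). These values rest on 21 to 35 reads per control library and 57 to 62 per verapamil library. Tnfsf13, encoding the related factor APRIL, was at 11, 8.12 and 9.55 CPM in control and 16.7, 15.4 and 12.8 CPM under verapamil (0.64 ± 0.14 SE, adjusted p = 0.010). Its groups were apart, but the call was lost without verapamil replicate 1 (adjusted p = 0.0524). Tnfsf12 encodes TWEAK, a ligand that acts on mesenchymal and epithelial cells through Fn14. It was at 42.7, 45.1 and 45.9 CPM in control and at 56.8, 52.8 and 57.8 CPM under verapamil (0.32 ± 0.06 SE, adjusted p = 0.00621), again without overlap.

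Tnfsf12 and Tnfsf13 are neighbours on chromosome 11 (69686240 to 69696098 and 69682577 to 69685554), and the read-through gene Tnfsfm13 spans both. Its own level was 12.4, 13.8 and 17.7 CPM in control and 14.1, 21.2 and 18.2 CPM in verapamil libraries, with overlapping groups (0.29 ± 0.18 SE, adjusted p = 0.254). Since these genes share sequence, how their reads were divided is uncertain. The non-coding Tnfsf13os also overlaps Tnfsf13 over 2978 bases and Tnfsf12 over 4902 bases.

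Tnf itself, the founding inflammatory cytokine of the family, was scarce. It was at 0.705, 0.588 and 0.781 CPM in control and 1.06, 0.992 and 1.26 CPM in verapamil libraries, from 11 to 17 and 20 to 28 reads. Its groups did not overlap, but the difference of 0.67 ± 0.25 SE did not pass (adjusted p = 0.0750). Tnfsf10, encoding the death ligand TRAIL (0.68 ± 0.26 SE, adjusted p = 0.0819), and Tnfsf9, encoding the ligand of CD137 (0.51 ± 0.18 SE, adjusted p = 0.0593), also had groups apart without passing. Tnfsf18, the ligand of GITR, was at 0.374 to 0.564 CPM in control and 0.449 to 0.902 CPM under verapamil (adjusted p = 0.480). The remaining ligands, Tnfsf4, Tnfsf8, Tnfsf14 and Tnfsf15, were too low to be tested, with 0 to 11 reads per library. Macrophage markers moved in the same direction as the ligands that rose, at a median of 0.58, and their part in these results was not tested.

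**Figure D2:**
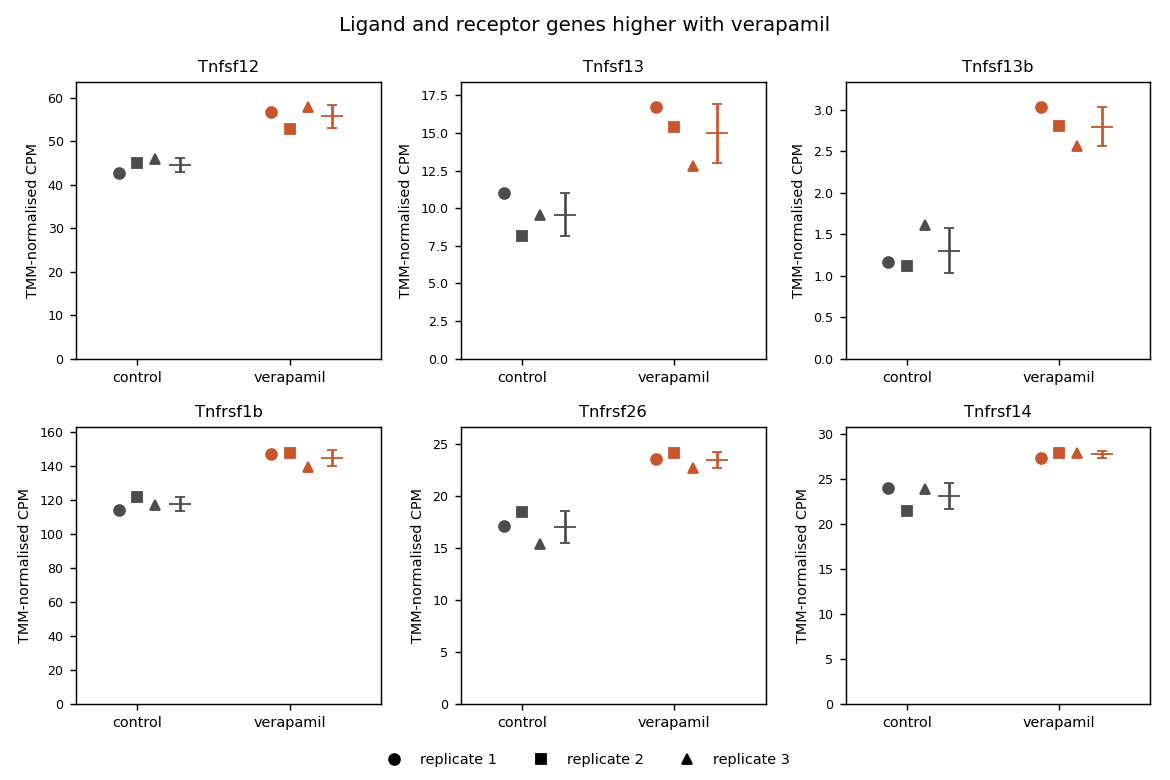
TMM-normalised CPM (y axis, from 0) of 3 ligand and 3 receptor genes called higher, in each control and verapamil library; symbols mark the replicate, and the bar beside them is the mean ± SD of 3 libraries. In every panel the 3 verapamil values lie above the 3 control values.

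Of 12 receptors tested, 4 rose and 3 fell (58.3% called, beside 31.7% of all genes tested). The 2 largest falls of the whole set were here, the second of them close to that of Tnfaip8l3 outside the receptors (-1.39). Tnfrsf12a encodes Fn14, the small receptor of TWEAK that is induced by growth factors and injury (chromosome 17, 23675445 to 23677449). It was at 131, 170.4 and 87.9 CPM in control and at 50.7, 43.4 and 53.3 CPM in verapamil libraries. The controls were far apart from each other, control replicate 2 being the highest and control replicate 3 the lowest, yet all lay above the verapamil libraries. The log2 fold change was -1.40 ± 0.24 SE, which is 2.64-fold lower (adjusted p = 0.00665), and without control replicate 2 it was -1.16 (adjusted p = 0.0188). Tnfrsf9, which encodes the costimulatory receptor CD137, was at 2.35, 4.70 and 1.06 CPM in control and at 0.159, 0.226 and 0.359 CPM in verapamil libraries. The counts were 50, 88 and 23 reads in control and 3, 5 and 8 in verapamil libraries. Its log2 fold change was -3.37 ± 0.67 SE (adjusted p = 0.00960), and without control replicate 2 it was -2.73 (adjusted p = 0.00155). The call held without each library in turn, but with an adjusted p of up to 0.0442, and by limma-voom (adjusted p = 0.0280).

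Tnfrsf23, encoding a mouse decoy receptor for TRAIL, was at 47.3, 62.1 and 37.1 CPM in control and at 32.6, 30.8 and 34.3 CPM in verapamil libraries. Its groups were apart by a narrow margin (-0.58 ± 0.17 SE, adjusted p = 0.0410), and the call was lost when control replicate 1 or a single verapamil library was dropped (adjusted p = 0.0868 to 0.123). It was also lost with no low-count filter (adjusted p = 0.0683) and by limma-voom (adjusted p = 0.0536). Tnfrsf23 lies in a cluster of related receptors on chromosome 7 (143665807 to 143686436), beside Tnfrsf22 (143634808 to 143649675) and Tnfrsf26 (143607685 to 143627845). These neighbours did not share a direction. Tnfrsf26 rose from 17.1, 18.5 and 15.4 CPM to 23.6, 24.2 and 22.7 CPM (0.47 ± 0.08 SE, adjusted p = 0.00463), while Tnfrsf22, another TRAIL decoy, was at 10.7, 13.5 and 8.91 CPM and 12.2, 9.88 and 10.4 CPM (-0.02 ± 0.16 SE, adjusted p = 0.924). Members of the cluster are similar in sequence, so reads could have been split between them.

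Both TNF receptors were among the more abundant members, and only the level of the second passed the test. Tnfrsf1a, the widely expressed receptor with a death domain, was at 187, 194 and 198 CPM in control and 181, 187 and 182 CPM under verapamil (-0.07 ± 0.05 SE, adjusted p = 0.321). Tnfrsf1b, the receptor best known from immune cells, rose from 114, 122 and 117 CPM to 147, 148 and 139.6 CPM, with groups well apart (0.30 ± 0.05 SE, adjusted p = 0.00448). Divided by transcript length, the ratio of Tnfrsf1b to Tnfrsf1a was 0.345, 0.354 and 0.333 in control and 0.461, 0.446 and 0.434 in verapamil libraries. The same ratio of the ligand Tnfsf12 to its receptor Tnfrsf12a was 0.224, 0.181 and 0.358 in control and 0.769, 0.835 and 0.744 in verapamil libraries. Fn14 mRNA was the more abundant of that pair per length in every library, by less under verapamil.

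Smaller rises were those of Tnfrsf21 and Tnfrsf14. Tnfrsf21, encoding death receptor 6, was at 42.8, 39.3 and 47.2 CPM in control and 54.1, 50.4 and 52.2 CPM under verapamil (0.28 ± 0.08 SE, adjusted p = 0.0256). Tnfrsf14, encoding the herpesvirus entry mediator, ran from 21.4 to 24.0 CPM in control and from 27.3 to 27.9 CPM under verapamil (0.26 ± 0.07 SE, adjusted p = 0.0210). Tnfrsf21 no longer passed when control replicate 1 or a single verapamil library was dropped (adjusted p = 0.0674 to 0.109), nor did Tnfrsf14 when a single verapamil library was dropped (adjusted p up to 0.0834). Tnfrsf13b, encoding the BAFF and APRIL receptor TACI, had groups apart at 7.00 to 7.67 and 7.97 to 9.52 CPM without passing (0.29 ± 0.11 SE, adjusted p = 0.0741). Tnfrsf10b, the death receptor for TRAIL (-0.08 ± 0.09 SE), and Tnfrsf19 (-0.23 ± 0.26 SE) did not pass. With single libraries left out, Tnfrsf19 was called only without control replicate 2 (adjusted p = 0.00951), where it stood at 6.46 CPM, beside 11.5 and 14.2 CPM in the other controls. Chromosome 4 holds 7 of the 18 receptor genes, of which Tnfrsf1b, Tnfrsf9 and Tnfrsf14 were tested. The others there, Tnfrsf4, Tnfrsf8, Tnfrsf18 and Tnfrsf25, were too low to test, as were the B-cell receptors Tnfrsf13c and Tnfrsf17. These 6 genes had 0 to 14 reads per library.

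The hypoxia list was spread over the libraries in the same order as several of the members that fell. Control replicate 2 was the highest and control replicate 3 the lowest in Tnfrsf12a, Tnfrsf9, Tnfrsf23 and Relb, which are 4 of the 7 members called lower. In the others called lower, control replicate 3 was the highest control (Bcl3 and Traf4) or control replicate 1 was (Tnfaip8l3). The order of the hypoxia list was found in 27.6% of the members tested and 25.4% of all genes tested. Among the 15 members called higher it was found in 2 (13.3%). The reverse order, with control replicate 3 the highest and control replicate 2 the lowest, was seen in Tnfaip3, Ikbke, Tnfsf13b, Tnfrsf21 and Traf3ip3. The share of the hypoxia order among all genes called lower, or among all called higher, was not counted. Of the 16 hypoxia genes, 13 were lower with verapamil and 0 higher, with a median log2 fold change of -1.53. The part of this spread in the falls was not tested. Among members called lower, the median coefficient of variation was 25.8% between controls and 8.05% between verapamil libraries, and among those called higher it was 5.94% and 3.53%. Over all members tested these medians were 9.13% and 7.35%, and over all genes tested 9.11% and 5.10%, so the controls were the more spread group there too.

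**Figure D3:**
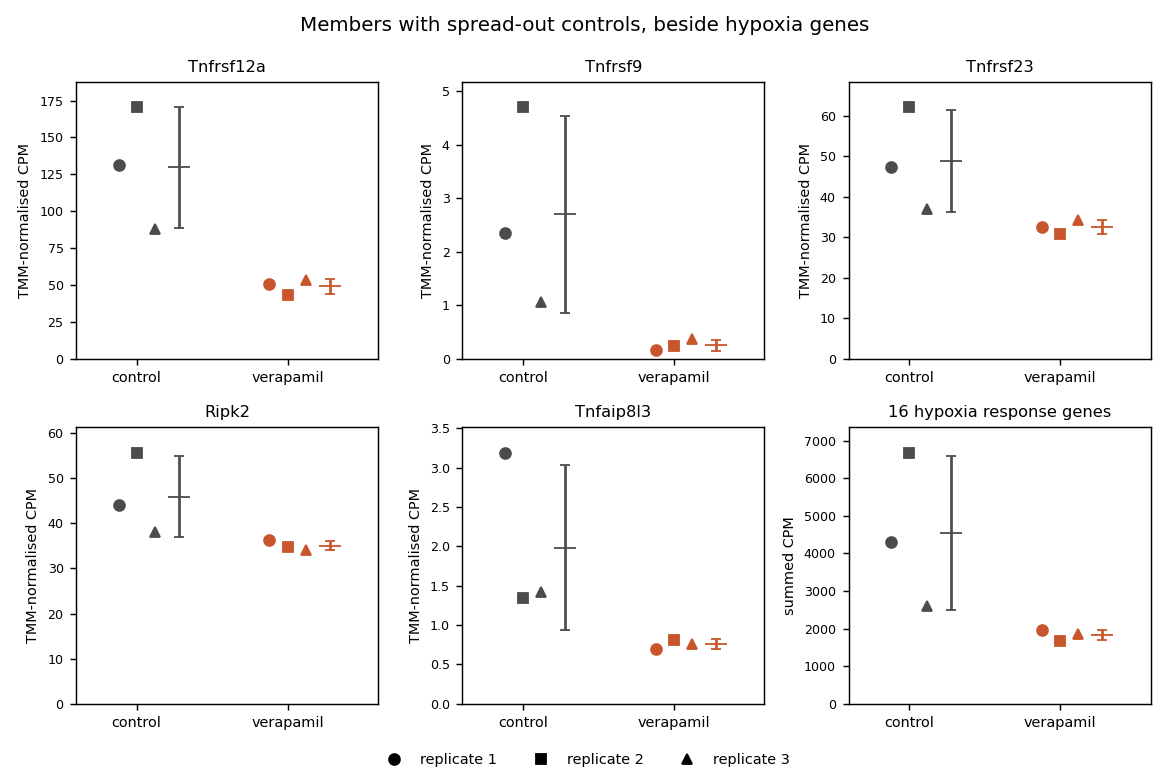
TMM-normalised CPM (y axis, from 0) of 5 members with widely spread controls, and the summed CPM of 16 hypoxia response genes, in each library; symbols mark the replicate and the bar is the mean ± SD of 3 libraries. Control replicate 2 (square) is the highest in Tnfrsf12a, Tnfrsf9, Tnfrsf23, Ripk2 and the hypoxia sum, and control replicate 1 (circle) is the highest in Tnfaip8l3. The panels were chosen after the values were seen. Traf3ip3, Tnfrsf19 and Nfkbid are not shown, with control coefficients of variation of 61.4%, 36.7% and 35.5%. In each of them control replicate 2 was the lowest control.

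Of 7 TRAF adaptors, 1 fell and 6 did not pass (14.3% called, beside 31.7% of all genes tested). Traf4, an adaptor first found in breast carcinoma, fell from 20.8, 20.9 and 21.3 CPM to 17.9, 15.6 and 17.9 CPM (-0.30 ± 0.08 SE, adjusted p = 0.0235). The groups were apart, but it lost the call when control replicate 1 or a single verapamil library was dropped (adjusted p = 0.0522 to 0.0920). It was also lost with scaling by library totals alone (-0.22, adjusted p = 0.0862). Traf2, the main adaptor of TNF receptors, was at 18.7, 18.7 and 21.2 CPM in control and 17.2, 21.3 and 19.9 CPM under verapamil (-0.01 ± 0.10 SE, adjusted p = 0.960). Traf6, which serves Toll-like receptors and RANK, was at 27.9, 26.2 and 27.7 CPM and 29.1, 29.1 and 25.9 CPM (0.04 ± 0.07 SE, adjusted p = 0.718). In both genes the groups overlapped. Traf3, which restrains the non-canonical branch, had groups apart but did not pass (-0.18 ± 0.07 SE, adjusted p = 0.0789), and Traf1, Traf5 and Traf7 had log2 fold changes of 0.08, -0.09 and 0.01.

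Of the 3 TRAF-interacting genes, Traf3ip3, which encodes a membrane protein of immune cells that binds TRAF3, rose. It was at 0.564, 0.481 and 1.38 CPM in control and 2.45, 2.84 and 2.29 CPM in verapamil libraries, from 9 to 30 and 46 to 63 reads. Control replicate 3 stood above the other controls but below every verapamil library. The log2 fold change of 1.62 ± 0.35 SE was the largest rise of any member (adjusted p = 0.00980). It was 2.25 without control replicate 3, and the call was lost without control replicate 1 (1.40, adjusted p = 0.0506). Its gene overlaps A130010J15Rik over 2334 bases, so reads there are uncertain. Traf3ip1 (-0.04 ± 0.10 SE) and Traf3ip2, encoding the interleukin 17 receptor adaptor Act1 (-0.20 ± 0.10 SE), did not pass.

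No RIP kinase passed the test. Ripk1, the kinase of the TNF receptor complex, was at 111, 106 and 105 CPM in control and 106, 109.6 and 107 CPM under verapamil (0.00 ± 0.05 SE, adjusted p = 0.957). Ripk3, the kinase of necroptosis, was at 47.4, 61.9 and 43.5 CPM and 42.5, 40.8 and 43.7 CPM (-0.26 ± 0.12 SE, adjusted p = 0.136). Ripk2, which serves the NOD receptors, was at 44.1, 55.7 and 38.0 CPM and 36.2, 34.7 and 34.2 CPM, without overlap, and fell just short of the test (-0.39 ± 0.13 SE, adjusted p = 0.0505). Control replicate 2 was the highest library for Ripk2 and Ripk3, and Ripk3 was called without control replicate 3 (-0.37, adjusted p = 0.0240). Ripk2 was called without control replicate 2 and without control replicate 3, but not without any of the other libraries. The whole of Ripk3 lies within the non-coding gene Gm32092, and its reads are uncertain.

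Among IκB kinase genes, Ikbke rose. It encodes IKKε, a kinase that is related to TBK1 and acts in interferon and NF-κB responses (chromosome 1, 131254600 to 131279601). Its levels of 22.9, 22.6 and 24.8 CPM in control and 35.2, 35.5 and 32.4 CPM in verapamil libraries were well apart (0.55 ± 0.07 SE, adjusted p = 0.00109), though the gene shares 12638 bases with the non-coding Gm28913. Ikbkb, the catalytic kinase of the canonical branch, was at 47.3, 49.6 and 50.1 CPM and 55.7, 52.6 and 56.4 CPM, without overlap and without passing (0.17 ± 0.06 SE, adjusted p = 0.0597). It was called with scaling by library totals alone (0.25, adjusted p = 0.0214) and without control replicate 2 (adjusted p = 0.0492). Ikbkg, the regulatory subunit NEMO, did not pass (-0.07 ± 0.09 SE), and its gene overlaps G6pdx over 19398 bases, so its reads are uncertain.

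Of the 5 NF-κB subunit genes, 1 fell and 4 did not pass. Relb, the transactivating subunit of the non-canonical branch, was at 12.2, 13.9 and 11.8 CPM in control and 10.2, 8.39 and 9.88 CPM under verapamil (-0.41 ± 0.11 SE, adjusted p = 0.0250). Its groups were apart, but dropping control replicate 1 or a single verapamil library ended the call (adjusted p = 0.0512 to 0.0955). Its partner Nfkb2 was at 44.5, 45.4 and 41.4 CPM and 39.6, 36.5 and 42.3 CPM (-0.15 ± 0.07 SE, adjusted p = 0.152). The canonical subunits overlapped between groups. Nfkb1, the precursor of p50, was at 72.8, 76.5 and 75.7 CPM and 74.2, 77.2 and 76.7 CPM (0.02 ± 0.05 SE, adjusted p = 0.809). Rela was at 70.6, 90.8 and 72.5 CPM and 73.5, 72.8 and 72.0 CPM (-0.10 ± 0.09 SE, adjusted p = 0.457), control replicate 2 alone standing high. Rel, the subunit of lymphoid and myeloid cells, was at 27.1, 21.2 and 29.9 CPM and 27.5, 28.7 and 25.7 CPM (0.07 ± 0.12 SE, adjusted p = 0.713).

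Genes of the IκB family moved in both directions. Nfkbia, encoding the classical inhibitor IκBα (chromosome 12, 55489409 to 55492647), rose from 51.0, 52.1 and 54.2 CPM to 62.6, 63.0 and 64.8 CPM (0.27 ± 0.05 SE, adjusted p = 0.00698). Bcl3, a nuclear IκB protein that works with p50 and p52 dimers (chromosome 7, 19808462 to 19822824), fell from 10.6, 10.9 and 11.3 CPM to 7.28, 7.49 and 8.36 CPM (-0.50 ± 0.10 SE, adjusted p = 0.00634). In both genes the groups were well apart, and both were called without each library in turn. Of the other 5 IκB-like genes none passed, with log2 fold changes from -0.31 in Nfkbiz to 0.38 in Nfkbid.

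Among the TNF-induced genes and partners of A20, 5 of 10 tested rose and 1 fell (60.0% called, beside 31.7% of all genes). Tnfaip3 had the smallest adjusted p of any member. It encodes A20, a ubiquitin-editing enzyme that ends NF-κB signalling (chromosome 10, 19000910 to 19015410). It was at 18.2, 17.7 and 18.4 CPM in control and 27.9, 26.3 and 28.8 CPM in verapamil libraries, 1.53-fold higher with little spread in either group (0.61 ± 0.07 SE, adjusted p = 6.33e-04). Its partner Tnip1, encoding ABIN-1, rose from 37.8, 38.4 and 44.7 CPM to 48.5, 46.9 and 49.0 CPM (0.26 ± 0.08 SE, adjusted p = 0.0341), a call that ended when control replicate 1 or a single verapamil library was dropped (adjusted p = 0.0871 to 0.119). Tnip2 (-0.30 ± 0.15 SE, adjusted p = 0.145) did not pass, and Tnip3 had 1 to 4 reads per library.

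Other genes named for induction by TNF included 4 called ones. Tnfaip2, a protein of membrane nanotubes in myeloid cells, rose from 108, 108 and 106 CPM to 138, 140.2 and 140.1 CPM (0.38 ± 0.05 SE, adjusted p = 0.00109). In the Tnfaip8 family of lipid-binding proteins, Tnfaip8 rose from 28.2, 30.0 and 30.7 CPM to 40.1, 40.3 and 39.0 CPM (0.43 ± 0.06 SE, adjusted p = 0.00176). Tnfaip8l2, encoding the immune regulator TIPE2, rose from 17.2, 18.5 and 16.4 CPM to 27.0, 27.8 and 24.8 CPM (0.61 ± 0.08 SE, adjusted p = 0.00112). For each of these 3 genes the groups were apart and the call held without each library in turn. The Tnfaip8 gene shares 15623 bases with the non-coding Gm33335 and 12050 with the non-coding C030005K06Rik, so reads there are uncertain. Tnfaip8l3 went the other way, from 3.19, 1.34 and 1.42 CPM to 0.691, 0.812 and 0.764 CPM (-1.39 ± 0.39 SE, adjusted p = 0.0263). Control replicate 1 alone was high, and without it the log2 fold change was -0.86 (adjusted p = 0.0573); the call was also lost when a single verapamil library was dropped (adjusted p = 0.0794 to 0.0911). Tnfaip6, encoding the hyaluronan-binding protein TSG-6, and Tnfaip1 had lower values in every verapamil library without passing (-0.64 ± 0.26 and -0.15 ± 0.06 SE), and Tnfaip8l1, which overlaps Mydgf over 7380 bases, did not pass (-0.19 ± 0.20 SE). Tnfaip8l2 and Traf3ip3 are known chiefly from immune cells, and over the same libraries the marker Ptprc of all white blood cells was at 77.7 to 97.0 CPM in control and 132 to 148 CPM in verapamil libraries, a part in these rises that was not tested.

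**Figure D4:**
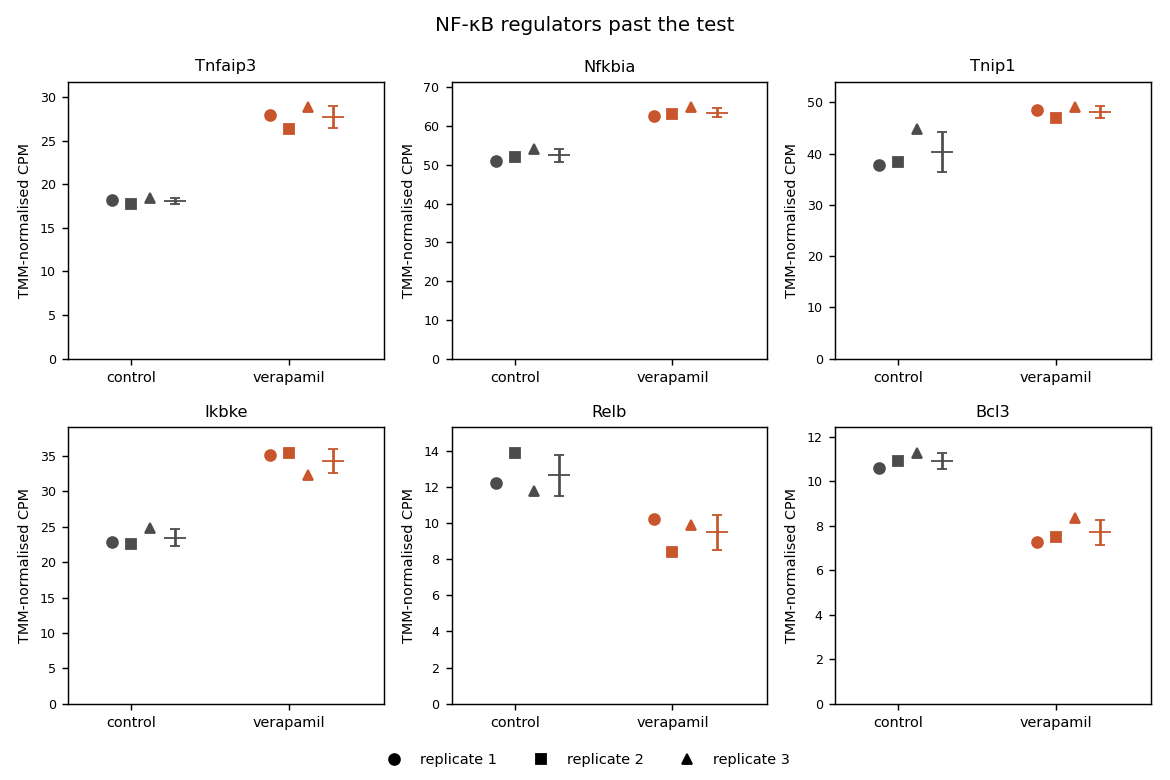
TMM-normalised CPM (y axis, from 0) of 6 NF-κB regulators past the test in each control and verapamil library; symbols mark the replicate and the bar is the mean ± SD of 3 libraries. Tnfaip3, Nfkbia, Tnip1 and Ikbke are higher in all verapamil libraries, and Relb and Bcl3 are lower in all of them.

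NF-κB binds a κB site of 10 bases, and several regulators carry such sites in front of their own start. RefSeq promoters of GRCm38.p6, from 250 bases before to 50 after each annotated start, were at hand for 46 of the 58 tested members and were searched on both strands for the κB consensus. It was found in 11 of the 46 members (23.9%), beside 6.26% of 10604 tested genes with a promoter. Of the members holding the consensus, Nfkbia, Tnfaip3 and Tnip1 were called higher, Bcl3 and Tnfrsf9 were called lower, and Nfkb2, Nfkbid, Nfkbie, Rel, Tnfaip8l1 and Traf3 were not called. Matches to a consensus describe the letters only. The 150 bases before the start are shown for the 4 called members whose matches lie there, since they moved in both directions. Capitals mark the matches, overlapping ones run together, and each sequence is on the strand of its gene (chr12:55492648-55492797 minus for Nfkbia, chr10:19015411-19015560 minus for Tnfaip3, chr11:54962941-54963090 minus for Tnip1 and chr4:150927849-150927998 plus for Tnfrsf9).
Nfkbia: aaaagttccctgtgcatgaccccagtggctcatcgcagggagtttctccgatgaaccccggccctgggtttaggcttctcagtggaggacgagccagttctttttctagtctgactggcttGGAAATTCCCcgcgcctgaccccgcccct
Tnfaip3: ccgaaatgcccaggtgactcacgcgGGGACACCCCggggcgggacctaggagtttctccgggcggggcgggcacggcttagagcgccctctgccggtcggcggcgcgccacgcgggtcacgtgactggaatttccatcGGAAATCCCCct
Tnip1: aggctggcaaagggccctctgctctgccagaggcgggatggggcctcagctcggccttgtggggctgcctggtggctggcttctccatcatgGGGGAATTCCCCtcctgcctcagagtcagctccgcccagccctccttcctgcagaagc
Tnfrsf9: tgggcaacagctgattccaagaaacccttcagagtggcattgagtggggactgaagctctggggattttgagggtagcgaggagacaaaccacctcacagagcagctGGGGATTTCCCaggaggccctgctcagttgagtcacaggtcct
The match of Nfkbia begins 29 bases before the start, and those of Tnfaip3 begin 125 and 12 bases before it. The first of Tnip1 and of Tnfrsf9 begin 58 and 43 bases before the start. For Tnfrsf9 this is a start inside the annotated gene (150920155 to 150946104), not at its outer end. In Bcl3 the match GGGAAGTCCC begins 2 bases after the start.

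**Figure D5:**
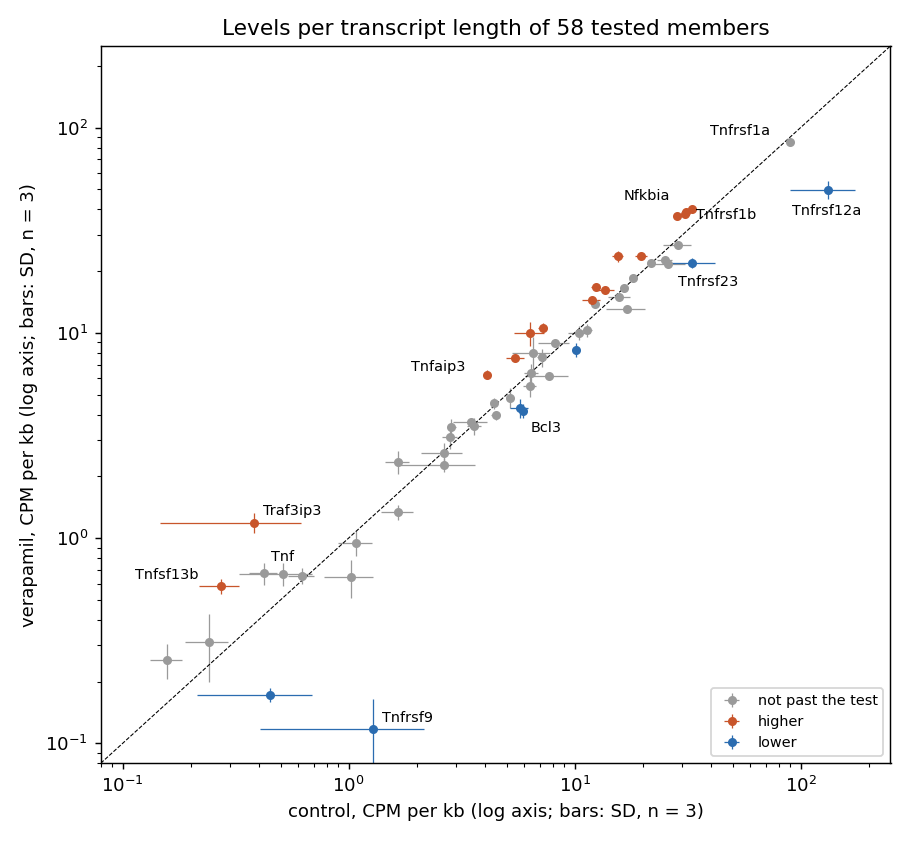
Mean level per transcript length (CPM per kb of the longest coding GENCODE transcript, log axes) of the 58 tested members in control (x axis) and verapamil (y axis) libraries; bars are SD of 3 libraries, colour gives the call and the dashed line marks equal levels. Most members lie near the line, Tnfrsf12a, Tnfrsf9 and Tnfaip8l3 lie below it, and Traf3ip3 and Tnfsf13b above it.

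Per transcript length, in control libraries the highest were Tnfrsf12a at 132 ± 41.9 CPM per kb and Tnfrsf1a at 89.4 ± 2.67 CPM per kb (mean ± SD, n = 3), and the lowest control library for Tnfrsf12a did not stand clear of those for Tnfrsf1a. Under verapamil Tnfrsf1a was the highest at 85.0 ± 1.70 CPM per kb and Tnfrsf12a came next at 49.9 ± 5.23 CPM per kb. Nfkbia followed in both groups, at 33.2 ± 1.04 and 40.2 ± 0.738 CPM per kb. Tnfrsf9 took the lowest place under verapamil at 0.117 ± 0.0481 CPM per kb, against 1.28 ± 0.874 CPM per kb in control. Tnf itself stood at 0.422 ± 0.0594 and 0.674 ± 0.0838 CPM per kb, far below both of its receptors.

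Other genes of the pathway, outside the symbol rule, also moved both ways. Of 88 tested, 26 were higher and 17 lower, 48.9% in all beside 31.7% of all genes, and with scaling by library totals alone these were 28 and 11. In 7 superfamily genes with other symbols, Fas, the death receptor, rose (0.50 ± 0.08 SE), and the neurotrophin receptor Ngfr (-0.67 ± 0.19 SE) and Relt (-0.50 ± 0.16 SE) fell. The groups overlapped in Relt, at 6.84 to 9.30 and 5.05 to 6.86 CPM, and it passed in 1 of the 6 analyses that left out a library, and Ngfr in 3 of them. The lymphotoxin receptor Ltbr was at 85.7 to 97.8 and 84.7 to 90.7 CPM (-0.04 ± 0.07 SE). Of 28 adaptors and kinases, 9 rose and 4 fell, with the paracaspase Malt1 at 0.53 ± 0.11 SE, its upstream scaffold Card9 at 0.53 ± 0.09 SE, Madd at 0.46 ± 0.09 SE and the kinase Tnik at -1.13 ± 0.13 SE. Of 22 ubiquitin regulators, 3 rose, 3 fell and 16 did not pass (27.3% called). Those that rose were the linear ubiquitin ligase subunit Sharpin (0.42 ± 0.08 SE), Birc3 (0.32 ± 0.10 SE) and the A20 partner Tax1bp1 (0.25 ± 0.06 SE), and the deubiquitinase Otud7b was among those that fell (-0.28 ± 0.05 SE). Birc3 passed in 2 and Tax1bp1 in 3 of the 6 analyses that left out a library.

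In a list of 50 genes known as NF-κB targets, 32 were tested, of which 14 rose, 8 fell and 10 did not pass. Those that rose were 43.8% of the 32 and those that fell 25.0%, beside 15.4% and 16.3% of all genes tested. The median log2 fold change of the list was 0.02. The chemokine Ccl3 rose from 9.16, 7.00 and 13.5 CPM to 23.9, 24.9 and 22.3 CPM (1.26 ± 0.21 SE, adjusted p = 0.00454). The survival gene Bcl2a1b rose from 57.0, 54.6 and 46.2 CPM to 112, 104 and 99.7 CPM (1.00 ± 0.09 SE), though its near-identical copies make the sharing of reads uncertain. On the other side, Myc fell by 1.07 on the log2 scale, from 42.9 to 64.2 CPM in control to 23.6 to 25.3 CPM in verapamil libraries. Ptgs2, encoding cyclooxygenase 2, was at 16, 19.3 and 6.16 CPM in control and 5.16, 5.50 and 4.27 CPM under verapamil (-1.47 ± 0.41 SE, adjusted p = 0.0381), and passed in only 1 of the 6 analyses that left out a library. Macrophage markers had a median of 0.58 in these libraries, and their part in the rises was not tested.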

How the data were processed

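The deposited table holds 1 estimated count per gene and library, a read count per the file headers, from total RNA libraries made with a SMARTER mRNA-seq kit, per the labels' protocols. Its build is GRCm38 (mm10), per the submitters' processing notes. Aligner, counter, annotation and use of strand: not given in the sources used here. Genes that overlap, on either strand, may therefore share reads. Before testing, estimated counts were rounded. filterByExpr (minimum count 10, minimum total 15) kept 13366 of 17491 genes, including 58 of 69 members. Verapamil was compared with control in R 4.3.3 with edgeR 4.0.16 (TMM factors, robust quasi-likelihood fit, Benjamini-Hochberg adjustment over all genes tested), calling genes at an adjusted p under 0.05. The SE was taken as the size of the log2 fold change divided by the root of F. CPM are TMM-normalised. The procedure was also run on simulated counts, with few genes changed and the same spread in both groups, unlike these data. That run therefore does not show how the procedure performs here. Replicate pairs differed beyond sampling noise (chi-square per degree of freedom 3.49 to 47.8).

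Coordinates and promoters came from RefSeq (GRCm38.p6), matched by Entrez ID for all 69 members, and lengths from the longest coding transcript in GENCODE. Values of each replicate are given for up to 6 called members per role with the largest change and for 15 core genes whether or not they passed, and each other pathway list is shown by up to 4 called genes with the largest change and a mean of at least 5 CPM. Other values, the figure panels and the order of controls were chosen after the values were seen. Members and lists were chosen with earlier results of these data known. Alternatives were other scaling (DESeq2 1.42.0 size factors, upper quartile, library totals), filters, unrounded counts, DESeq2, limma-voom (limma 3.58.1), a stricter threshold, a replicate block and each library left out.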

Additional observations from a re-analysis of the deposited data

How the results depend on the processing

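No named member changed direction while past the test under any alternative run. The number of members called higher (15) stayed between 11 and 18 throughout, and was 11 to 16 with each library left out in turn. The number called lower (7) was 3 at an adjusted p under 0.01, and 3 to 11 with a library left out, 3 when control replicate 1 or a single verapamil library was dropped and 11 without control replicate 3. Other pathway genes called higher (26) numbered 13 at an adjusted p under 0.01 and 14 to 26 with a library left out, lowest without verapamil replicates 2 (14) and 1 (15). Those called lower (17) numbered 11 with library totals alone, 7 at an adjusted p under 0.01, and 7 to 19 with a library left out, namely 9 without control replicate 1 and 7 without verapamil replicates 1 or 3. Library totals alone moved the median of all genes to 0.09 and the share of calls that were higher from 48.5% to 63.7%. Same-numbered libraries did not deviate together (correlations 0.00892, -0.167 and -0.127, and 0 of 6 libraries correlated best with their own number). With the replicate number as a block, 4 members were called lower and 13 higher, and 10 and 20 other pathway genes. Depth limits genes with few reads, among them Tnf and the 11 members not tested.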
